A study of Mus musculus with 16 samples.

Results

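The semaphorins are secreted or membrane-bound guidance proteins, and the plexins and neuropilins are their receptors. Genes of these families were taken by symbol from the protein-coding genes of the table, which gave 31 of 33072 genes: 20 semaphorins, 9 plexins and 2 neuropilins. By class, there were 7 semaphorins of class 3, 6 of class 4, 2 of class 5, 4 of class 6 and 1 of class 7. RNA had been sequenced from 4T1 and 67NR cells, BALB/c mouse mammary carcinoma lines from the same tumor, of which 4T1 is metastatic and 67NR is not. Each line was given vehicle (DMSO) or CIX, an inhibitor of the cytosolic phospholipase cPLA2α, at 15 µM for 24 h in medium with serum. The groups of 4 samples were 67NR vehicle (samples 1, 5, 9 and 13), 67NR CIX (2, 6, 10 and 14), 4T1 vehicle (3, 7, 11 and 15) and 4T1 CIX (4, 8, 12 and 16), 16 samples in all. The labels name no engineered allele, and a single line stands for each metastatic class, so that metastatic potential and any other property of the lines cannot be told apart.

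Class 3 semaphorins are secreted and mostly bind a neuropilin, which passes the signal on to a class A plexin, whereas Sema3e can bind Plxnd1 directly. Most class 4 to 7 semaphorins are held at the membrane and bind plexins without a neuropilin, for example Sema4d with Plxnb1 and Sema7a with Plxnc1. The intracellular part of a plexin acts on small GTPases and through them on the cytoskeleton and on adhesion. In tumors the families are known from cell migration, invasion and vessel growth, and neuropilins also bind VEGF.

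Windows before the annotated start of 5 genes are printed here because the comparisons turned on them: Plxnb1, Plxnd1 and Nrp1 for CIX, and Sema3e and Sema3a as class 3 ligands read in 1 line each. The sequences are from RefSeq on GRCm38.p6, run 5′ to 3′ on the strand of the gene and end at the base before its start. The motifs searched on both strands were the GC box GGGCGG, the E-box CACCTG and the AP-1 site TGANTCA, which do not overlap each other in these windows, and capitals mark the matches.
Plxnb1 lies on the + strand, chr9:109095186-109095388, 203 bases that end where GENCODE starts the gene and overlap exon sequence of the antisense gene Gm7628.
Plxnb1: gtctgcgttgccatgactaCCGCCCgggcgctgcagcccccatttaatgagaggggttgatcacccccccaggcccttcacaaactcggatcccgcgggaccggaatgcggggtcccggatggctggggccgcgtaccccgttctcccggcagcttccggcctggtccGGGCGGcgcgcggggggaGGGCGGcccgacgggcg
Plxnd1 lies on the - strand, chr6:115995006-115995255.
Plxnd1: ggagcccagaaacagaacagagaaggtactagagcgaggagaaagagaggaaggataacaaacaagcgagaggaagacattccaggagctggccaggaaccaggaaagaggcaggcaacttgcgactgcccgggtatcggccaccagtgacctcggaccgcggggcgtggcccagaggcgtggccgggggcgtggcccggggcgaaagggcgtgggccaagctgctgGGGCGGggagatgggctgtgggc
Nrp1 lies on the + strand, chr8:128358823-128359072, inside the GENCODE gene but in none of its exons.
Nrp1: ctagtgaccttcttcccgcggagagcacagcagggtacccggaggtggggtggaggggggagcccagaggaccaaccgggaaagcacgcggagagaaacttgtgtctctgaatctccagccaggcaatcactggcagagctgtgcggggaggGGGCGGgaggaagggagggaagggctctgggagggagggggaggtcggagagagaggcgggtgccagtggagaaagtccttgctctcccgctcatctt
Sema3e lies on the + strand, chr5:14025026-14025275.
Sema3e: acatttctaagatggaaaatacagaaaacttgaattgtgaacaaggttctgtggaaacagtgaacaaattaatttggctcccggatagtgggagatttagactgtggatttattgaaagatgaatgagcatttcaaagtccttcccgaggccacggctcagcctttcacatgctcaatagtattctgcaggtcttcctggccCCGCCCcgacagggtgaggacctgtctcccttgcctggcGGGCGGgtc
Sema3a lies on the + strand, chr5:13396534-13396783, also inside the GENCODE gene and outside its exons.
Sema3a: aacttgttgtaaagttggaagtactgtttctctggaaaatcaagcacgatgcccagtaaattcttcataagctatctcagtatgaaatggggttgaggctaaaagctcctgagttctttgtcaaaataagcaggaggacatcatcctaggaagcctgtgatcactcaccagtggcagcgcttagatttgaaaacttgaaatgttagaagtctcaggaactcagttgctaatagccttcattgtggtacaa
The windows of Plxnb1, Plxnd1 and Nrp1 held 24, 16 and 11 CG dinucleotides, against a median of 6 and quartiles of 2 and 16 over 32851 RefSeq windows of 250 bases, so that Plxnb1 was above the upper quartile. Sema3e had 7 and Sema3a had 2. The GC box occurred 3 times in the Plxnb1 window, 2 times in that of Sema3e, once each in those of Plxnd1 and Nrp1 and not at all in that of Sema3a. The E-box and the AP-1 site were in none of the 5 windows. RefSeq windows were matched for 26 of the 31 genes (37 windows), and 27 of the 37 (73.0%) held a GC box, compared with 32.7% of all windows. The E-box was in 13.5% of the members' windows and 17.2% of all, and the AP-1 site in 8.11% and 6.75%. A match is a description of letters and no binding site.

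Estimated counts summed to between 21715700 and 29450629 per sample, so that 3 counts, the smallest level taken as detected, lay between 0.102 and 0.138 CPM (counting error only). Levels of a gene across samples are given as CPM scaled by TMM normalization, and levels are compared between genes only as TPM, approximated from the mean transcript length. Of 6 epithelial markers, 5 (Epcam, Cdh1, Krt8, Krt18 and Cldn7) had a TPM of at least 1 in all 4T1 vehicle samples, whereas 0 of 6 did in 67NR, where their summed TPM was at most 3.93. Of 6 mesenchymal markers, 5 were read at that level in 67NR and 2 (Vim and Fn1) in 4T1. Summed TPM was at most 1.14 for immune and 4.64 for endothelial markers in any sample, and among the neural markers Map2 was read in every group. Pla2g4a, the gene of the inhibited enzyme, was read in all 16 samples, and 67NR vehicle sample 13 reached 325 CPM where the lowest sample of its group had 60.2 CPM.

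Of the 20 semaphorins, 10 had a TPM of at least 1 in all 67NR vehicle samples and 12 did in all 4T1 vehicle samples. Of the 9 plexins, 5 did in each line, and both neuropilins did in both lines. In 67NR vehicle cells the semaphorin with the highest mean TPM was Sema7a, at 161, followed by Sema5a at 101, and the samples of this pair did not overlap. Sema3a, Sema3f and Sema4b came next, between 21.5 and 22.5, and neighbours among them overlapped. In 4T1 vehicle cells Sema3f led with a mean TPM of 124, followed by Sema3e at 58.6, again without overlap. Sema4b, Sema4d and Sema4c followed between 29.1 and 31.6, and here neighbours overlapped. Both leading ligands of 67NR stood lower in 4T1, where Sema7a had a mean TPM of 15.5 and Sema5a of 3.79.

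Among the receptors, Plxnb2 had the highest mean TPM in both lines, 119 in 67NR and 232 in 4T1 with vehicle. In 67NR it was followed by Plxna1 (81.7) and Nrp2 (75.4), whose samples overlapped, and by Plxnd1 (51.0) and Plxna3 (24.2), which did not overlap. In 4T1 the next were Nrp2 (144) and Plxnb1 (135), which overlapped, and then Plxna3 (36.6) and Plxna1 (26.1), which overlapped too. Plxnd1 stood at 11.6 and Nrp1 at 2.10 in 4T1, and Nrp1 at 12.4 in 67NR. The order at the top depends on the length used, because the longest annotated transcript in place of the mean length put Nrp2 before Plxnb2, at 101 against 62.2 in 67NR and 197 against 125 in 4T1. The first pair of semaphorins in each line kept its order with that length, but in 4T1 vehicle cells the pair then overlapped, at 69.0 to 89.9 for Sema3f and 58.6 to 73.5 for Sema3e. Below that pair the order changed with the length, with Sema4b (25.2) and Sema6b (22.5) before Sema3a (15.2) and Sema3f (13.1) in 67NR, and Sema6b (24.0) before Sema4d (15.2) in 4T1.

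**Figure D1:**
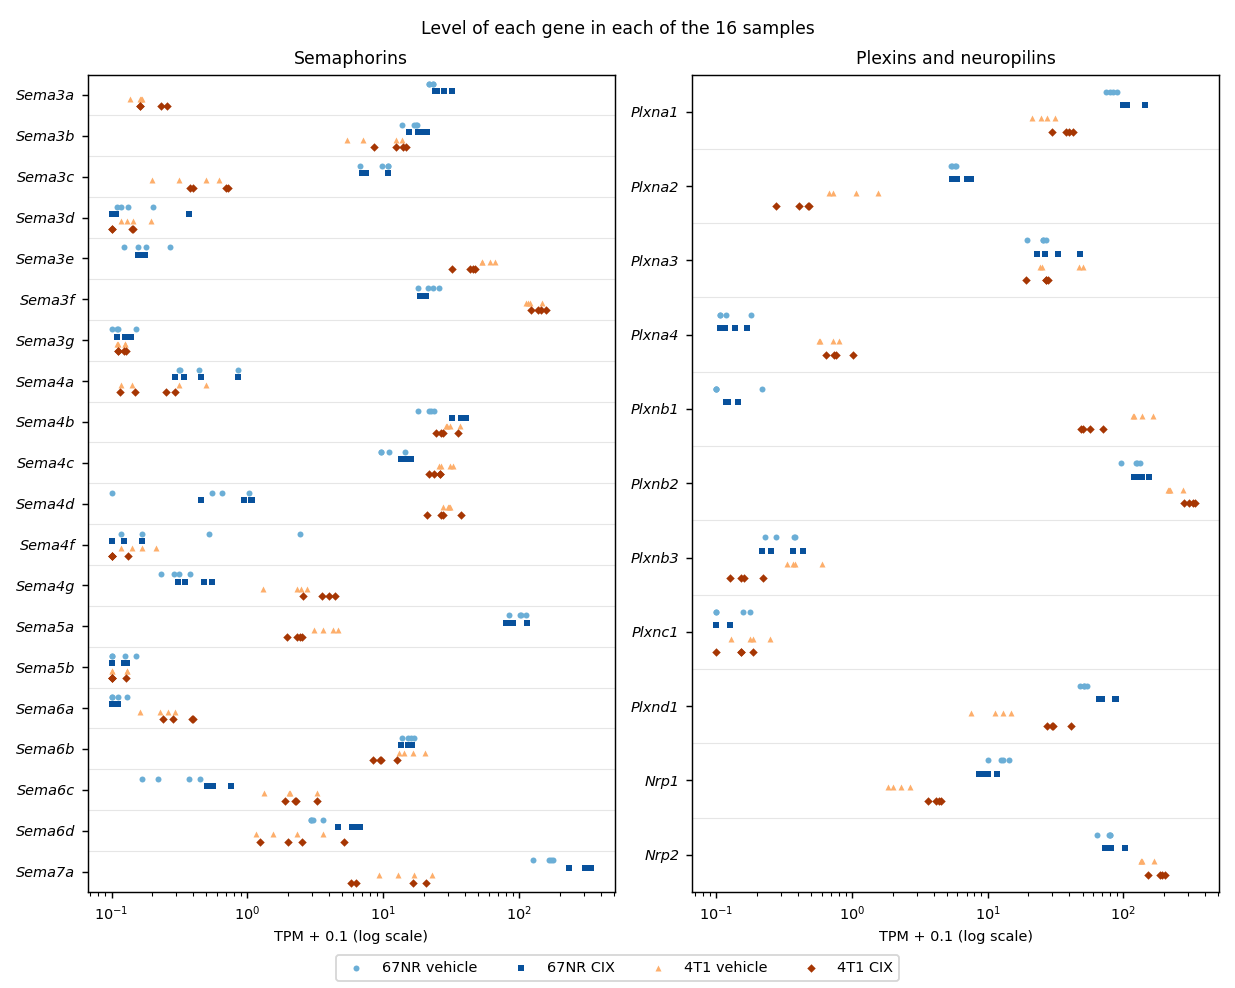
TPM + 0.1 of each of the 31 genes in each of the 16 samples on a log scale, 1 symbol per sample and 1 colour per group, with semaphorins at left and receptors at right. Sema3e and Plxnb1 lie far to the right in 4T1 and near the left edge in 67NR. Sema4d lies far to the right in 4T1 and at a TPM below 1 in 67NR, and Sema3a and Sema3c are higher in 67NR.

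Of the 31 genes, 8 stayed below a TPM of 1 in all 16 samples: Sema3d, Sema3g, Sema4a, Sema5b, Sema6a, Plxna4, Plxnb3 and Plxnc1. Plxnc1, the plexin that binds Sema7a, was read at between 0 and 5.13 estimated counts per sample, Sema3g at between 0 and 4.08 and Sema5b at between 0 and 2.03. Sema4f reached a TPM of 2.32 in 67NR vehicle sample 9 and was at or below 0.112 in all 4T1 vehicle samples. For Plxnc1, Sema3g and Sema5b a difference between groups was not detectable at this depth.

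The first comparison asked which of the genes differ between the untreated lines. The filter followed that of the study, whose methods do not say over which samples it was counted. Here a gene stayed in the test only where no more than 3 of the 8 samples fell under a TPM of 1. That kept 15 of the 31 genes and left 16 out. A gene was called at a limma-voom adjusted p-value below 0.001 over all 11040 tested genes. Of the 15 tested genes, 10 were called, compared with 40.0% of all tested genes. The level was higher in 4T1 for 4 of them (20.4% of all genes) and lower for 6 (19.6% of all). By role, 4 of 8 semaphorins and 6 of 7 receptors were called. Each of the 8 refits with 1 sample removed called these 10 genes, beside 31.7% to 39.6% of all tested genes. The samples of both lines did not overlap for 12 of the 15 genes, against 61.5% of all tested genes. In RNA from whole cultures, fewer cells with a transcript and less of it per cell cannot be told apart, and the part of the epithelial and mesenchymal markers, which also differed between the lines, was not tested.

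This filter removes a gene that is read in only 1 of the lines. A filter added after the data were seen, a TPM of at least 1 in 4 or more samples, let in 7 further genes, each through 1 line alone. Plxnb1, Sema3e, Sema4d, Sema4g and Sema6c came in through 4T1, and Sema3a and Sema3c through 67NR. A gene that comes in this way has to differ, so that the levels of these 7 genes are given below as a description, without a test. Plxna4, under both filters, was at 2.56 to 3.62 CPM in 4T1 and 0.0397 to 0.451 CPM in 67NR.

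Among the secreted class 3 ligands, Sema3f (ENSMUSG00000034684, chromosome 9, 107681500 to 107710475), a ligand of Nrp2, was at 21.6, 23.5, 25.7 and 19.3 CPM in the 67NR vehicle samples. In 4T1 vehicle cells it was at 116, 141, 113 and 107 CPM. All 4T1 samples were above all 67NR samples, with a log2 fold change of 2.39 (SE 0.12, limma-voom adjusted p = 4.54e-07), a 5.24-fold higher level. Sema3e (ENSMUSG00000063531, chromosome 5, 14025276 to 14256689), the ligand of Plxnd1, was at 189, 212, 195 and 223 CPM in 4T1 vehicle cells. In 67NR vehicle cells it was at 0.290, 0.209, 0.610 and 0.0932 CPM, so that the lines did not overlap. Sema3a, a repulsive ligand of Nrp1, showed the opposite order, from 43.5 to 49.7 CPM in 67NR and from 0.0755 to 0.130 CPM in 4T1, the latter being under 3 counts in every sample. Sema3c, which binds Nrp1 and Nrp2, was at 14.6 to 22.3 CPM in 67NR and 0.188 to 1.02 CPM in 4T1. Sema3b, another secreted ligand of the neuropilins, had a log2 difference of -0.98 and was not called (limma-voom adjusted p = 0.0111).

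Of the membrane-bound ligands, Sema5a (ENSMUSG00000022231, chromosome 15, 32244810 to 32696341), which carries thrombospondin repeats and can bind Plxnb3, was at 322, 323, 351 and 283 CPM in 67NR vehicle cells. In 4T1 vehicle cells it was at 8.96, 12.5, 10.9 and 12.9 CPM. This was the largest difference among the 15 genes in that test, with a log2 fold change of -4.84 (SE 0.12, limma-voom adjusted p = 3.32e-08), a 28.6-fold lower level in 4T1. Sema7a (ENSMUSG00000038264, chromosome 9, 57940112 to 57962865), the lipid-anchored semaphorin that also binds integrin, was at 188, 261, 241 and 270.2 CPM in 67NR. In 4T1 it was at 32.3, 17.8, 13.5 and 22.6 CPM, with every sample below those of 67NR. Its log2 fold change was -3.54 (SE 0.24, limma-voom adjusted p = 2.15e-06). Sema4c (ENSMUSG00000026121, chromosome 1, 36548639 to 36558349), a ligand of Plxnb2, was at 16.6, 24.6, 18.5 and 17.4 CPM in 67NR and at 54.0, 43.9, 43.8 and 48.7 CPM in 4T1. It was higher in 4T1 by 1.31 on the log2 scale (SE 0.14, limma-voom adjusted p = 3.02e-05), without overlap.

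Sema4d, the ligand of Plxnb1, was at 29.2 to 34.5 CPM in 4T1 and 0 to 1.03 CPM in 67NR. Sema4g (ENSMUSG00000025207, chromosome 19, 44989101 to 45003397) was at 2.52, 4.94, 4.83 and 5.27 CPM in 4T1 and at 0.289, 0.463, 0.606 and 0.436 CPM in 67NR. Sema6c ranged from 2.16 to 5.85 CPM in 4T1 and from 0.124 to 0.691 CPM in 67NR, and neither gene overlapped between the lines. Sema4b (ENSMUSG00000030539, chromosome 7, 80186841 to 80226527) was at 52.4, 54.7, 49.6 and 44.1 CPM in 67NR and at 81.7, 63.9, 68.1 and 65.1 CPM in 4T1. Its samples did not overlap, but the log2 difference of 0.46 was not called (limma-voom adjusted p = 0.00388). Sema6d was not called either (limma-voom adjusted p = 0.0446), and its lines overlapped at 10.1, 12.5, 10.0 and 11.1 CPM in 67NR and 12.0, 4.93, 3.75 and 7.13 CPM in 4T1. Sema6b (ENSMUSG00000001227, chromosome 17, 56123085 to 56140343), at 39.5 to 44.8 CPM in 67NR and 35.3 to 53.0 CPM in 4T1, had overlapping lines and a log2 difference of -0.06 (SE 0.13).

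The receptors differed in both directions. Nrp1 (ENSMUSG00000025810, chromosome 8, 128358604 to 128503363), the co-receptor of Sema3a and VEGF, was at 31.9, 32.8, 35.6 and 27.1 CPM in 67NR vehicle cells and at 6.25, 5.35, 4.42 and 4.40 CPM in 4T1 vehicle cells. The log2 fold change was -2.66 (SE 0.15, limma-voom adjusted p = 8.03e-07), a 6.32-fold lower level in 4T1. Nrp2 (ENSMUSG00000025969, chromosome 1, 62703285 to 62818695), the co-receptor of Sema3f, went the other way, from 362, 354, 348 and 305 CPM in 67NR to 584, 574, 603 and 691 CPM in 4T1. Its log2 fold change was 0.83 (SE 0.08, limma-voom adjusted p = 2.03e-05). The neuropilins of the lines thus differed in opposite directions, each without overlap.

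Of the class A plexins, which pair with neuropilins, Plxna1 (ENSMUSG00000030084, chromosome 6, 89316314 to 89362620) was at 181, 168, 198 and 199 CPM in 67NR and at 53.1, 58.8, 47.6 and 64.2 CPM in 4T1. Its log2 fold change was -1.75 (SE 0.11, limma-voom adjusted p = 1.49e-06). Plxna2 (ENSMUSG00000026640, chromosome 1, 194618218 to 194816869) was at 19.2, 17.8, 19.1 and 19.3 CPM in 67NR and at 1.89, 4.69, 2.10 and 2.99 CPM in 4T1, a log2 fold change of -2.78 (SE 0.23, limma-voom adjusted p = 6.03e-06). The TPM of Plxna2 in 4T1 was 0.582, 1.45, 0.621 and 0.969, so that it passed the filter through 67NR and 4T1 sample 7 alone. Plxna3 overlapped between the lines, and its log2 difference of 0.42 was not called (limma-voom adjusted p = 0.154). Plxnd1 (ENSMUSG00000030123, chromosome 6, 115954811 to 115995005), the receptor of Sema3e, was at 68.3, 72.8, 75.5 and 78.0 CPM in 67NR and at 20.1, 10.1, 18.2 and 14.5 CPM in 4T1. Its log2 fold change was -2.28 (SE 0.18, limma-voom adjusted p = 5.36e-06), so that ligand and receptor of this pair were higher in different lines.

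Of the class B plexins, Plxnb1 and Plxnb2 were higher in 4T1. Plxnb1 (ENSMUSG00000053646, chromosome 9, 109095389 to 109119917), the receptor of Sema4d, was at 168, 190.4, 170.3 and 219.7 CPM in 4T1 vehicle cells. In 67NR vehicle cells it was at 0 in samples 1, 5 and 13 and at 0.172 CPM in sample 9, which were 4.33 counts. Plxnb2 (ENSMUSG00000036606, chromosome 15, 89155549 to 89180788), the receptor of Sema4c, was at 211, 224, 209 and 172 CPM in 67NR and at 359, 346, 366 and 425 CPM in 4T1. Its log2 fold change was 0.87 (SE 0.10, limma-voom adjusted p = 4.12e-05). Plxnb3, at up to 1.86 CPM, stayed under the filter. Exons of antisense genes cover 2.68% of the exon bases of Plxnb1, 10.7% of Plxna1 and 7.27% of Sema4c, and while the library kit marks strand, whether the counting used it was not given in the sources used here.

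**Figure D2:**
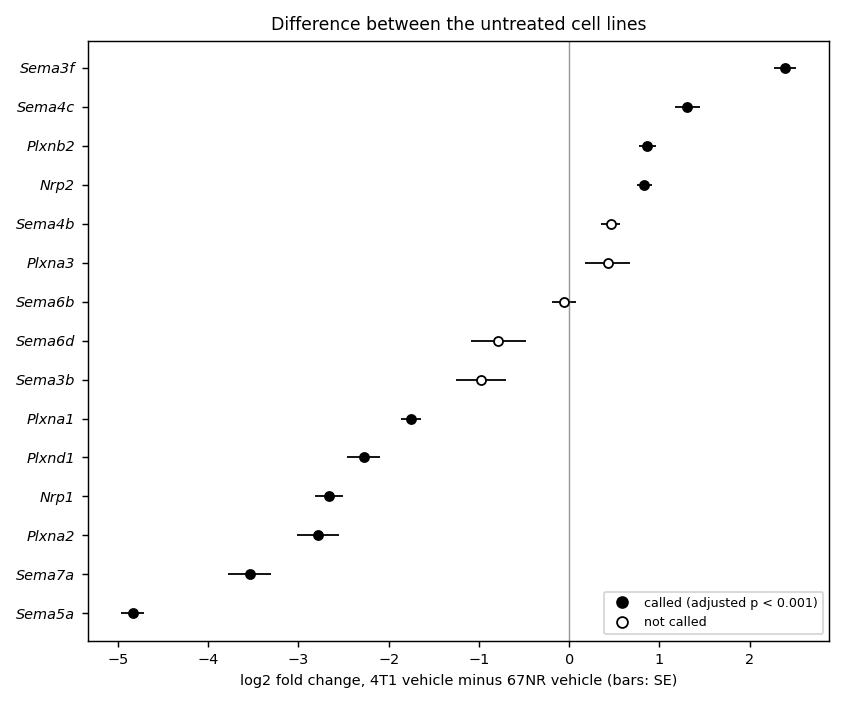
log2 fold change between 4T1 vehicle and 67NR vehicle cells with its SE (bars) for the 15 genes that passed the filter on TPM, in order. Filled symbols were called, and the values run from -4.84 for Sema5a to 2.39 for Sema3f.

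The next comparison asked how CIX affects these genes in 4T1 cells. Of the 31 genes, 19 passed the filter and 12 were left out, and 2 were called, compared with 9.34% of all tested genes. Plxnd1 rose, as did 5.35% of all tested genes, and Plxnb1 fell, as did 3.99%. The median log2 fold change of the 19 genes was 0.26, beside -0.01 over all 11659 tested genes. At an adjusted p-value below 0.05 there were 10 genes, 6 higher and 4 lower, beside 42.7% of all tested genes (21.9% higher and 20.8% lower), and the samples of 10 genes did not overlap, beside 40.0% of all. The summed TPM of the 6 mesenchymal markers, of which Vim and Fn1 were read, was also higher with CIX, at 2621 to 3108 against 1403 to 1820 with vehicle, and that of the 6 epithelial markers was at 1899 to 2048 against 1959 to 2152. Their part in the changes after CIX was not tested.

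Plxnd1 was at 20.1, 10.1, 18.2 and 14.5 CPM with vehicle and at 59.9, 43.4, 40.1 and 43.1 CPM with CIX. Every CIX sample was above every vehicle sample, and sample 4 was the highest. The mean level rose from 15.7 ± 4.40 to 46.6 ± 8.97 CPM (SD, n = 4), or by 1.57 on the log2 scale (SE 0.22, limma-voom adjusted p = 5.81e-04), which is 2.98-fold. Plxnb1 was at 168, 190.4, 170.3 and 219.7 CPM with vehicle and at 105, 73.9, 85.1 and 71.5 CPM with CIX. All CIX samples were below all vehicle samples. Its mean fell from 187 ± 24.0 to 83.8 ± 15.1 CPM (SD, n = 4), and the log2 fold change was -1.18 (SE 0.14, limma-voom adjusted p = 3.10e-04). Both calls were near the threshold. When each sample was removed in turn, Plxnb1 was called in 3 and Plxnd1 in 2 of 8 refits, with 0 called without vehicle sample 7 or 15 or CIX sample 8, 12 or 16 and 1 called without vehicle sample 11. In these refits the log2 fold change stayed between 1.38 and 1.71 for Plxnd1 and between -1.31 and -1.10 for Plxnb1.

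The other receptors with an adjusted p-value below 0.05 had higher levels with CIX and were not called by limma-voom, whereas DESeq2 called Nrp1, Plxnb2 and Plxna1. Nrp1 was at 6.25, 5.35, 4.42 and 4.40 CPM with vehicle and at 11.1, 10.4, 9.26 and 11.5 CPM with CIX, a log2 difference of 1.04 (SE 0.17, limma-voom adjusted p = 0.00129). Plxnb2 was at 359, 346, 366 and 425 CPM and at 564, 570.4, 489.9 and 525 CPM with CIX, a log2 difference of 0.51 (SE 0.09, limma-voom adjusted p = 0.00231). The groups of both genes were separate. Plxna1 was at 47.6 to 64.2 CPM with vehicle and at 68.3, 88.8, 88.0 and 97.1 CPM with CIX (log2 difference 0.59, limma-voom adjusted p = 0.00755). Nrp2 reached 691 CPM in the highest vehicle sample and began at 696 CPM in the CIX samples, which were at 696, 860, 864 and 916 CPM (log2 difference 0.42, limma-voom adjusted p = 0.00954). Plxna3 overlapped, with a log2 difference of -0.41. Plxna2 and Plxnb3 were left out by the filter, and both had separate groups, 1.89 to 4.69 against 0.623 to 1.33 CPM for Plxna2 and 0.868 to 1.86 against 0.110 to 0.481 CPM for Plxnb3. Without the filter their log2 differences were -1.37 and -2.17 (limma-voom adjusted p = 0.0215 and 0.00651).

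Of the 12 semaphorins tested in 4T1, limma-voom called 0 and DESeq2 called 1 (Sema5a), while 5 had an unadjusted p-value below 0.05 and 4 an adjusted p-value below 0.05. Over all tested genes, limma-voom called 9.34% and DESeq2 26.6%, while 51.2% had an unadjusted and 42.7% an adjusted p-value below 0.05. Sema3e was at 189, 212, 195 and 223 CPM with vehicle and at 120.0, 174, 175 and 163 CPM with CIX, a log2 difference of -0.40 (SE 0.13, limma-voom adjusted p = 0.0324). Sema5a was at 8.96, 12.5, 10.9 and 12.9 CPM and at 5.92, 7.62, 7.61 and 7.07 CPM with CIX, a log2 difference of -0.69 (SE 0.17, limma-voom adjusted p = 0.00972). For both ligands the CIX samples were below the vehicle samples. Sema6b, a transmembrane ligand of class A plexins, was at 53.0, 36.5, 35.3 and 41.2 CPM and at 34.6, 25.8, 26.3 and 23.2 CPM with CIX, a log2 difference of -0.61 (SE 0.17, limma-voom adjusted p = 0.0173). Sema4g was at 8.70, 9.46, 5.55 and 7.66 CPM with CIX, where its vehicle samples reached 5.27 CPM, a log2 difference of 0.84 (SE 0.27, limma-voom adjusted p = 0.0332). Sema3f, the leading ligand, was at 107 to 141 CPM with vehicle and at 128 to 160.0 CPM with CIX, and its groups overlapped (limma-voom adjusted p = 0.0975). Sema3b, Sema4b, Sema4c, Sema4d, Sema6c, Sema6d and Sema7a overlapped too, with log2 differences from -0.41 for Sema7a to 0.53 for Sema3b. In Sema6d and Sema7a the spread was wide, as Sema6d ranged from 4.23 to 18.3 CPM and Sema7a from 8.35 to 30.8 CPM in the CIX samples.

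In 67NR cells CIX was tested for 17 of the 31 genes, and 14 were left out by the filter. Of the 17, 0 were called by limma-voom, beside 0.389% of all 11560 tested genes, while 8 of the 17 had an unadjusted p-value below 0.05 (32.8% of all genes) and DESeq2 called 4 (9.00% of all). At an adjusted p-value below 0.05 there were 6 genes, 5 higher and 1 lower, beside 17.8% of all tested genes (8.51% higher and 9.26% lower). The median log2 difference of the 17 genes was 0.19, beside -0.01 over all. Groups did not overlap for 5 genes, beside 23.3% of all. The summed TPM of the mesenchymal markers, of which 5 of 6 were read in both groups, was at 4080 to 5107 with vehicle and 6566 to 7421 with CIX, and its part in these differences was not tested either.

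Of the 10 semaphorins tested, 3 were among the 6 genes, and DESeq2 called these 3 and Plxnd1. Sema4b was at 52.4, 54.7, 49.6 and 44.1 CPM with vehicle and at 78.0, 76.3, 92.9 and 86.2 CPM with CIX, a log2 difference of 0.71 (SE 0.09, limma-voom adjusted p = 0.00173). Sema6d (ENSMUSG00000027200, chromosome 2, 124089969 to 124667770), a ligand of Plxna1, was at 10.1, 12.5, 10.0 and 11.1 CPM and at 17.3, 21.4, 23.4 and 22.5 CPM with CIX, a log2 difference of 0.93 (SE 0.13, limma-voom adjusted p = 0.00278). All CIX samples were above all vehicle samples in both. Sema7a was at 188, 261, 241 and 270.2 CPM with vehicle and at 364, 461, 455 and 495 CPM with CIX, again without overlap, and its log2 difference was 0.87 (SE 0.14, limma-voom adjusted p = 0.00440). The other semaphorins tested (Sema3a, Sema3b, Sema3c, Sema3f, Sema4c, Sema5a and Sema6b) overlapped between the groups, with log2 differences from -0.24 for Sema3c to 0.41 for Sema4c (limma-voom adjusted p = 0.349 and 0.0505). The summed TPM of all 20 semaphorins ranged from 351 to 413 with vehicle and from 455 to 585 with CIX in 67NR, and Sema7a alone made 127 to 178 and 233 to 339 of it.

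Of the receptors in 67NR, Plxnd1 was at 68.3, 72.8, 75.5 and 78.0 CPM with vehicle and at 105, 128, 93.0 and 126 CPM with CIX (log2 difference 0.59, SE 0.11, limma-voom adjusted p = 0.00867). Plxna1 was at 181, 168, 198 and 199 CPM and at 253, 229, 321 and 234 CPM with CIX (log2 difference 0.44, SE 0.12, limma-voom adjusted p = 0.0340). Both were separate between the groups. Nrp1 was at 31.9, 32.8, 35.6 and 27.1 CPM with vehicle and at 23.1, 23.4, 29.2 and 25.2 CPM with CIX, where sample 10 lay above vehicle sample 13 (log2 difference -0.36, SE 0.11, limma-voom adjusted p = 0.0457). Nrp2 and Plxnb2 overlapped between the groups, with log2 differences of 0.14 and 0.18. Plxnb1 stayed at or below 0.0655 CPM in the CIX samples, under 3 counts.

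**Figure D3:**
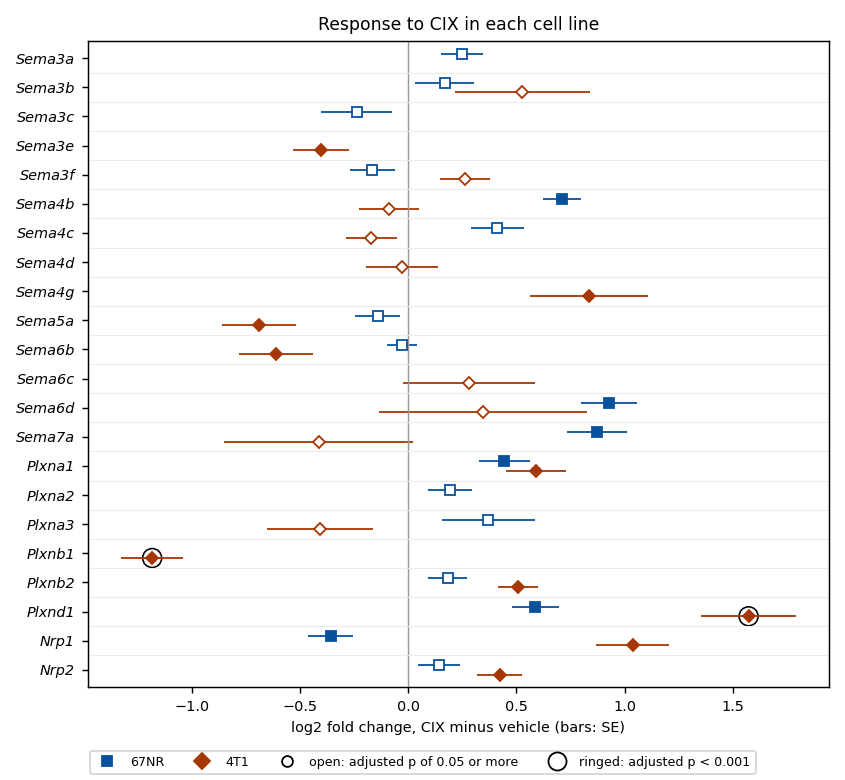
log2 fold change of CIX against vehicle with its SE (bars) in 67NR (squares) and 4T1 (diamonds) for the genes tested in either line. Filled symbols had an adjusted p-value below 0.05 and ringed symbols were called, which were Plxnb1 and Plxnd1 in 4T1, and Nrp1 lies on opposite sides of 0.

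Whether the response to CIX differed between the lines was tested by an interaction term over all 16 samples. A gene was tested where it passed the filter in at least 1 line, which gave 22 genes, and 1 was called, Nrp1, compared with 7.86% of all 12605 tested genes (4.81% with a positive value, 4T1 minus 67NR). Of the 22 genes, 8 passed in 1 line alone, namely Plxnb1, Sema3e, Sema4d, Sema4g and Sema6c in 4T1 and Plxna2, Sema3a and Sema3c in 67NR, and their response in the other line rests on a TPM mostly or always below 1. Among the 14 genes that passed in both lines the call was 1 of 14, beside 8.79% of 10614 such genes. The log2 fold change of Nrp1 was higher in 4T1 by 1.39 on the log2 scale (SE 0.20, limma-voom adjusted p = 1.26e-04), from a log2 difference of 1.04 in 4T1 and -0.36 in 67NR, and it was called in 16 of 16 refits with 1 sample removed. With CIX, Nrp1 was at 10.6 ± 0.990 CPM in 4T1 and 25.2 ± 2.83 CPM in 67NR (SD, n = 4), where vehicle cells were at 5.11 ± 0.884 and 31.8 ± 3.51 CPM. All 4T1 CIX samples were below all 67NR CIX samples.

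At an adjusted p-value below 0.05 there were 7 genes, 2 with a positive and 5 with a negative value, beside 29.4% of all tested genes (15.1% positive and 14.2% negative). Without Plxna2, which passed in 67NR alone, there were 6 of the 14 genes that passed in both lines, beside 31.9% of all such genes. Sema4b had an interaction of -0.80 (limma-voom adjusted p = 0.00214), from log2 differences of 0.71 in 67NR and -0.09 in 4T1. Plxna2 was at 18.9 ± 0.718 CPM with vehicle and 22.0 ± 2.62 CPM with CIX in 67NR and at 2.92 ± 1.27 and 1.07 ± 0.320 CPM in 4T1 (SD, n = 4). Plxnd1, with log2 differences of 0.59 and 1.57 that had the same sign in both lines, had an interaction of 0.98 (limma-voom adjusted p = 0.00671). For Sema4c it was -0.59 (limma-voom adjusted p = 0.0180), for Sema6b -0.59 (0.0254) and for Sema7a -1.29 (0.0385). Sema4c had CIX samples at 26.0, 26.4, 22.9 and 27.1 CPM in 67NR and at 46.0, 40.8, 46.8 and 37.7 CPM in 4T1. For Plxna1, which had an adjusted p-value below 0.05 in both lines, the interaction was 0.15 (SE 0.18, limma-voom adjusted p = 0.598). Plxnb1 had too few counts in 67NR for its response there to be measured.

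**Figure D4:**
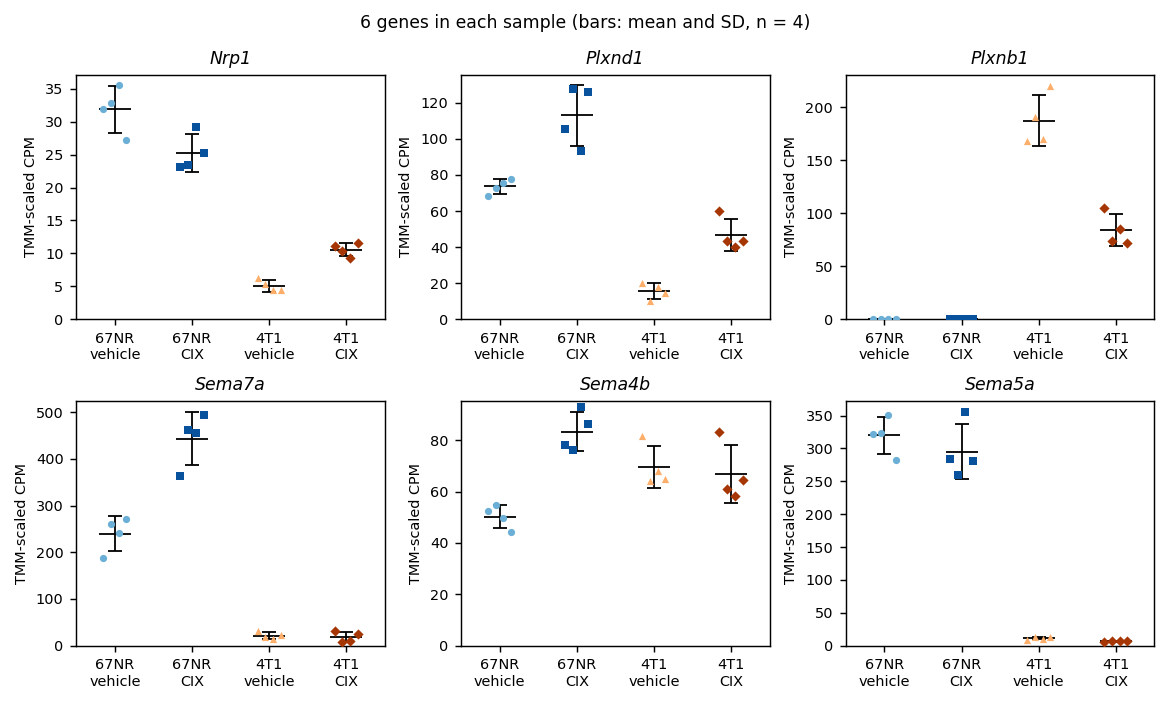
TMM-scaled CPM of Nrp1, Plxnd1, Plxnb1, Sema7a, Sema4b and Sema5a in each sample of the 4 groups, with the mean and SD (n = 4) as bars. Nrp1 is higher with CIX than with vehicle in all 4T1 samples, while Sema7a and Sema4b are higher with CIX in all 67NR samples.

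Partners of the receptors were described from lists of effectors, co-receptors, VEGF ligands and proteases. Of 26 plexin effectors, 21 were tested for CIX in 4T1, and limma-voom called 5, all higher (Arhgef12, Cdk5, Fyn, Mical2 and Rhoa), with a median log2 fold change of 0.50 beside -0.01 over all genes and a share of 5.35% of all genes called higher. Cdk5, a kinase that phosphorylates collapsin response mediator proteins, rose from 7.70 ± 3.02 to 37.9 ± 5.38 CPM (SD, n = 4), or by 2.35 on the log2 scale (SE 0.25, limma-voom adjusted p = 1.67e-04). Mical2, an oxidoreductase that acts on actin, rose by 1.18 on the log2 scale, and Fyn, a kinase that acts downstream of plexins, by 1.03. Among 7 tested co-receptors and other receptors, Erbb2, which can associate with Plxnb1, was called higher. Of 4 tested VEGF ligands and 5 tested proteases, 0 were called by limma-voom or DESeq2, and 1 and 3 had an unadjusted p-value below 0.05, beside 51.2% of all genes. In 67NR limma-voom called 0 of the 34 tested genes of the 4 lists (0.389% of all genes), DESeq2 called 6 (9.00% of all), and 17 had an unadjusted p-value below 0.05 (32.8% of all). The interaction was tested for 40 genes of the 4 lists, and limma-voom called 1, the effector Cdk5, at 2.13 (SE 0.31, adjusted p = 1.25e-04), beside 7.86% of all genes, while DESeq2 called 3 (15.7% of all).

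Between the untreated lines, 13 of 20 tested effectors were called, 5 higher and 8 lower in 4T1, beside 40.0% of all tested genes. The level was higher in 4T1 in Sh3bp1, a GTPase-activating protein that binds plexins, with a log2 fold change of 4.24 from 7.74 ± 0.837 to 151 ± 43.5 CPM (SD, n = 4). The largest differences in the other direction were in Cdk5 with -3.11, Fyn with -2.17 and Farp2, a Rac exchange factor bound by class A plexins, with -1.86. Pgf, a VEGF family ligand of neuropilins, was higher in 4T1 by 3.00 on the log2 scale (SE 0.16, limma-voom adjusted p = 5.81e-07), and Adam10 was the protease called, with a lower level. Of 4 tested co-receptors limma-voom called 0 and DESeq2 called 2 (52.0% of all genes), and 3 had an unadjusted p-value below 0.05 (70.2% of all).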

How the data were processed

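RNA of 16 samples had been sequenced from poly-A libraries made with a strand-marking kit, on 1 flow cell. Per their methods, the authors ran salmon against mouse Ensembl GRCm38 and used tximport to reach gene level. They deposited estimated counts for 33072 genes without normalization. The submitters' processing notes list Salmon 0.12 and name GRCh38, although the table holds mouse identifiers. The methods give 4 biological replicates per group, but the labels do not say that the samples of a group came from separate cultures. If they did not, p-values measure only the technical spread between these samples.

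Samples were grouped by their labels. Symbols, positions and lengths came from GENCODE on GRCm38, which held 32832 of the genes. Counts were rounded and tested with limma-voom and TMM normalization (limma 3.58.1, edgeR 4.0.16, R 4.3.3), over all genes of each comparison that passed the TPM filter (for the interaction, in at least 1 line), with Benjamini-Hochberg adjusted p-values and calls below 0.001. Per gene, TPM used the mean transcript length. DESeq2 1.42.0, other scalings, filters, weights and thresholds, and each sample left out in turn, were tried as alternatives. Members described in full were those called in any comparison or below an adjusted p of 0.05 for CIX, 16 in all, and up to 3 partner genes per direction were named by size of change. The members and lists were chosen with earlier results of these data known. Of the words of 31 bases in the members' transcripts, at most 2.31% (Plxna2) occur in another gene.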

Additional observations from a re-analysis of the deposited data

Results flagged for a closer look

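Dixon's ratio was computed for 64 groups of 4 samples of the described members. In 5 groups 1 sample stood further from its group than the 95% limit of this ratio allows, and chance alone gives about 1 in 20 groups, here 3.2. Plxnd1 was at 59.9 CPM in 4T1 CIX sample 4, and the other samples of the group lay between 40.1 and 43.4 CPM. Sema4g was at 2.52 CPM in 4T1 vehicle sample 3, below the others at 4.83 to 5.27 CPM. Plxna2 was at 17.8 CPM in 67NR vehicle sample 5, where the others lay between 19.1 and 19.3 CPM. Plxnb1 had 4.33 estimated counts, or 0.172 CPM, in sample 9 of the 67NR vehicle group and 0 in its other 3 samples. In 67NR CIX cells sample 10 had 0.0655 CPM of Plxnb1 and the others 0.0272 to 0.0319 CPM, all under 3 counts.

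The response of Nrp1 to CIX differed between the lines by 1.39 on the log2 scale (limma-voom interaction, adjusted p = 1.26e-04), with a higher level in all 4 of the 4T1 CIX samples than in any 4T1 vehicle sample.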

How the results depend on the processing

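Alternatives were counted only for the 36 member results that fell under 0.05 after adjustment in the main test. Of their 733 values, 699 kept direction and side of the threshold, 23 passed it newly, 11 lost it and 0 reversed. The 0 holds for this selection alone, because some members outside it changed sign when 1 sample was removed. For CIX in 4T1, the log2 difference then ran from -0.05 to 0.67 for Sema6d and from -0.19 to 0.10 for Sema4d. All 11 losses came from removing a sample. Counts of called members are given with the share of all tested genes called in the same way. For CIX in 4T1, 2 members were called in the main test (9.34% of all genes), 6 with the Wald test of DESeq2 (26.6%), 4 with all 16 samples in a common fit (23.0%), 6 with sample quality weights (21.6%), 10 at a threshold of 0.05 (42.7%), and from 0 to 2 with 1 sample removed (2.31% to 8.36%). For CIX in 67NR, 0 were called in the main test by limma-voom (0.389%), 4 with DESeq2 (9.00%), 2 with quality weights (2.14%) and 6 at 0.05 (17.8%). Between the untreated lines 10 were called (40.0%), 18 without a filter on low values (28.4%) and 17 with the added filter (46.4%), where the 7 further genes had passed only through the line in which they are high and so had to differ. For the interaction 1 was called (7.86%), 3 with DESeq2 (15.7%), 4 with quality weights (15.2%), 7 at 0.05 (29.4%), 2 with limma on log2(TPM + 1) (8.24%), and from 1 to 2 with 1 sample removed (5.17% to 8.30%), the 2 being without 4T1 CIX sample 4 (8.28%). For the other moved counts the cause was not tested. In 4T1, 624 genes were called higher and 465 lower after CIX, against 608 and 476 with the size factors of DESeq2, 511 and 531 with no scaling beyond library size, and 462 and 549 with limma on log2(TPM + 1), which changes the unit and the weighting as well. For the interaction the split was 606 and 385, against 608 and 388, 490 and 417, and 491 and 548 in the same order. No paired analysis was possible because the labels tie no samples of different groups together: the sample numbers run from 1 to 16 without repeats. Each run of 4 numbers holds every group once, but a block by these runs would rest on sample order alone and was not fitted. Depth limits what can be seen of Plxnc1, Sema3g and Sema5b, which had few counts in all samples.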
